A study of Mus musculus with 12 samples.

Results

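Lysosomes are the acidic organelles in which a cell breaks down what it has taken up or recycles from within. Soluble hydrolases each cut one kind of bond in glycans, lipids, proteins or phosphate esters, a proton pump (the V-ATPase, with a membrane sector V0 and a cytosolic sector V1) keeps the lumen acidic, and heavily glycosylated membrane proteins line it. Many of the genes are transcribed under TFEB and its relatives, which bind a short E-box in promoters and are held in the cytosol by the kinase mTORC1. In the arterial wall every cell has lysosomes, and macrophages are known for having many.

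Messenger RNA of 30 lysosomal genes was compared between mouse chronic proximal thoracic aortic aneurysms (cPTAA, 7 libraries, numbered 2, 3, 4, 6, 7, 9 and 12) and sham-operated proximal thoracic aortas (5 libraries, numbered 1, 5, 8, 10 and 11). The genes were taken by symbol from a list of hydrolases, activators, membrane proteins and pump subunits, with cathepsin proteases left out other than Ctsa. All 30 were found among the 30130 genes in the table. All mice were male, of a strain written C56BL/6J. The cPTAA mice received elastase, a protease that degrades elastic fibres, on the outside of the aorta together with BAPN, an inhibitor of lysyl oxidases, and the sham mice had surgery without it and normal water. Age and the time from surgery to harvest are not given in the sources used here. The tissue was whole vessel, so that more cells of a type and more RNA per cell cannot be told apart in any value below. Elastase and BAPN were given together, so they cannot be told apart either.

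Depth was 14078885 to 17493428 reads per library. All 30 genes passed the filter on low values, and they would have passed it on the sham libraries alone. Smooth muscle markers, which define the labelled tissue, were present in all 12 libraries, with a mean log2 level over 8 genes of 11.1 to 12.79 in cPTAA and 12.82 to 12.9 in sham, and 4 of the 8 fell. Fibroblast markers (5 of 8 rose) were at 12.5 to 13.4 in cPTAA and 11.3 to 12.1 in sham, and adipocyte markers (6 of 7 fell) at 11.1 to 11.99 against 12.02 to 12.9. None of these 3 scores overlapped between the groups, and their part in the changes of lysosomal genes was not tested. Of the macrophage markers (16 genes, none at 0 in all sham libraries) 14 rose. Their mean log2 level was 9.67 to 10.7 in cPTAA and 7.36 to 8.48 in sham. Their summed levels were 30952 to 56894 in cPTAA and 6057 to 25590 in sham. The highest sham sum was that of sham 8, where Lyz2 alone was at 20798, against 2234 to 5095 in the other sham libraries. Brown adipocyte markers (10 genes, all of which fell) had a mean log2 level of 6.72 to 10.1 against 10.3 to 11.9. Cardiomyocyte markers stood apart in cPTAA 6, 7 and 9 (mean log2 levels of 9.28, 9.77 and 11.2, against 4.32 to 6.26 in the other 4 aneurysms and 5.56 to 8.10 in sham). In what follows, values are normalised read counts. Sham values are given in the order of libraries 1, 5, 8, 10 and 11, and cPTAA values as the lowest, median and highest. Log2 fold changes (± SE) are cPTAA minus sham, and "rose" and "fell" mean an adjusted p under 0.05.

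Of the 30 lysosomal genes, 15 rose, 1 fell and 14 did not pass. Of all 21415 tested genes, 12.9% rose and 11.1% fell. The median log2 fold change of the 30 was 0.44, and that of all tested genes was -0.05. In 11 of the 30 genes every aneurysm lay above every sham library, which held for 8.02% of tested genes, and in 0 did every aneurysm lie below, against 4.95%. The 15 that rose did so unevenly: Atp6v0d2 and Laptm5 changed several-fold, and the other 13 had log2 fold changes of 0.40 to 1.11. Of the 16 calls, 14 held under all 21 other settings without a covariate, the exceptions being Neu1 and Lamp2. After adjustment for the brown adipocyte score 2 rose (Atp6v0d2 and Laptm5) and 0 fell, against 1.27% and 0.434% of all tested genes. That score did not overlap between the groups, and adjustment for it widened the median SE of the 30 genes from 0.146 to 0.246. The 13 rises that no longer passed all kept a log2 fold change above 0, of 0.02 to 1.07 (adjusted p 0.0621 to 0.967), with a median of 0.61 against 0.90 before. Among them Cd63 (1.07), Grn (0.996), Tcirg1 (0.99), Gusb (0.94), Hexa (0.88) and Ctsa (0.81) lay close to their unadjusted log2 fold changes, and Naglu (0.37), Manba (0.28) and Lamp2 (0.02) were at less than 0.5 times theirs. After adjustment for the macrophage score 0 of the 30 and 0% of all tested genes passed by limma, and 0 of the 30 had an unadjusted p under 0.05. The macrophage score itself did not overlap between the groups, and with it the median SE over all tested genes was 1.08 against 0.302 without it, so that macrophage or brown adipocyte content and condition cannot be told apart here.

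**Figure D1:**
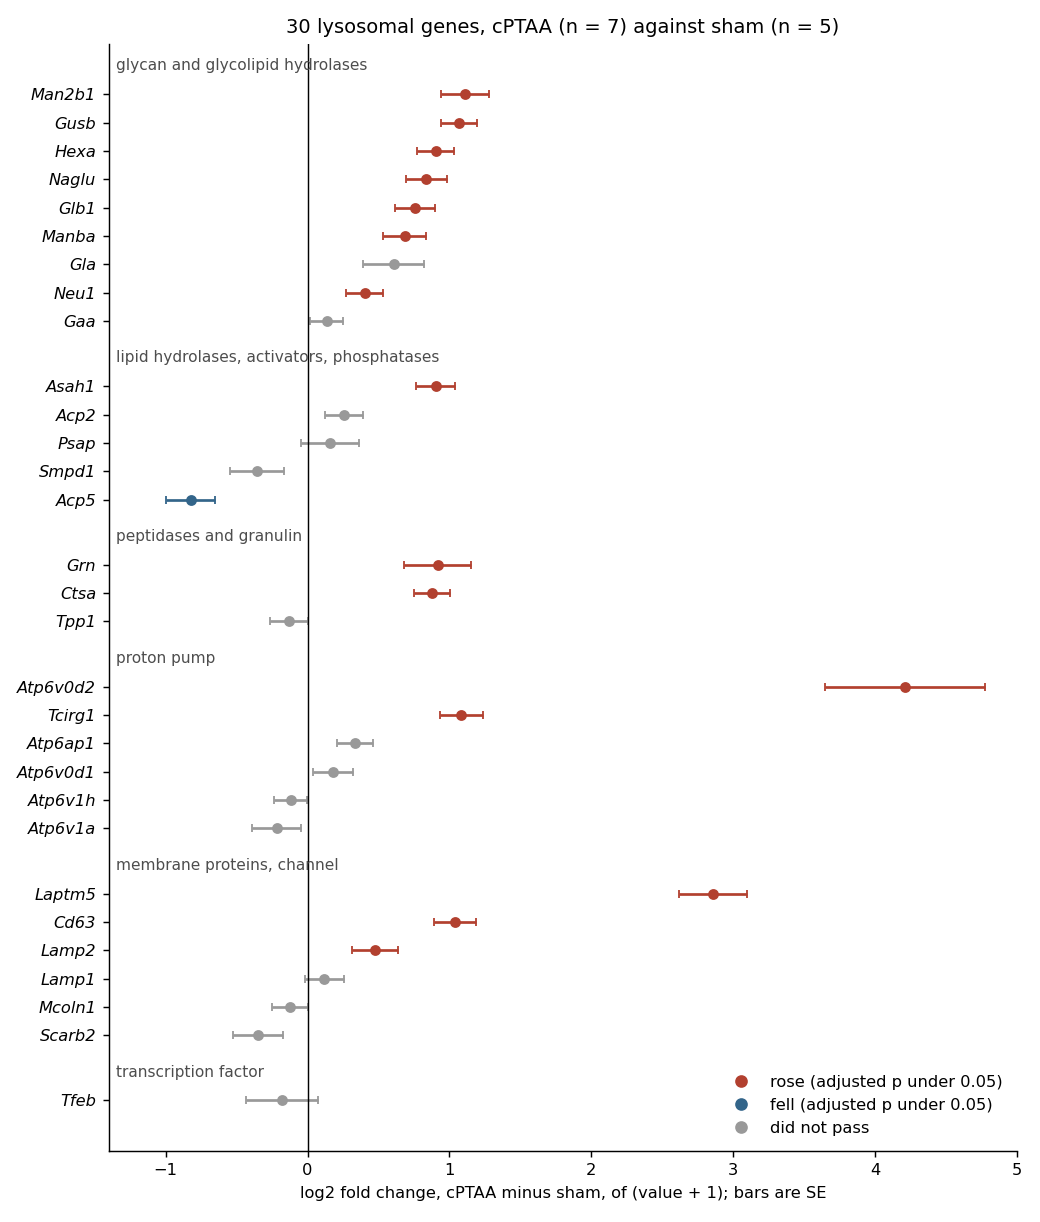
Log2 fold changes of the 30 lysosomal genes (horizontal axis, cPTAA minus sham, of value + 1; bars are SE), sorted within role. The proton pump gene Atp6v0d2 (4.21) and the membrane protein gene Laptm5 (2.86) stand to the right of all others, and Acp5 (-0.82) is the 1 gene that fell.

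Sequence was available to set these changes beside the TFEB family's target motif. The stretch from 250 bases before to 50 after the transcription start was read from RefSeq (build GRCm38.p6, another build than the one the reads were aligned to) for 27 of the 30 genes, with 35 start sites among them. It was searched on both strands for the E-box CACGTG and for its longer form TCACGTG, which contains it. Of the 27 genes, 9 (33.3%) held TCACGTG, as did 4.29% of all 27025 genes with a promoter in the table (3.77% of 32851 promoters). The same 9 held CACGTG, which 8.09% of all genes did. All 9 are shown, whether or not they rose. One match per gene is given with 10 bases on either side, with the match in capitals:
Ctsa (GRCm38.p6 chr2:164833750-164833777, + strand, 13 bases before the start): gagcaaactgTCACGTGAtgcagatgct
Glb1 (chr9:114401019-114401045, + strand, 49 bases before): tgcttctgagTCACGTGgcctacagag
Naglu (chr11:101070010-101070036, + strand, 74 bases before): aaccttcaggTCACGTGgcccgaggtc
Lamp1 (chr8:13159089-13159115, + strand, 62 bases before): gggcaagataTCACGTGgtccagcgcc
Mcoln1 (chr8:3500463-3500490, + strand, 46 bases before): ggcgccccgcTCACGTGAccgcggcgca
Atp6v0d1 (chr8:105566051-105566078, - strand, 4 bases before): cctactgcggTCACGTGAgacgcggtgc
Gaa (chr11:119267812-119267838, + strand, 141 bases before): ttctgtgcgaTCACGTGtttgactctg
Atp6v1a (chr16:44139374-44139401, - strand, 132 bases before): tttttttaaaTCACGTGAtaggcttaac
Gla (chrX:134601183-134601210, - strand, 195 bases before): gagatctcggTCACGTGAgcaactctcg
Lamp1 held 4 such matches, and Ctsa, Mcoln1 and Gla held 2 each. Of the 9 genes with a match, 3 rose (Ctsa, Glb1 and Naglu) and 6 did not pass. Of the 18 genes without a match, 10 rose, 1 fell and 7 did not pass. Atp6v0d2 and Asah1, which rose, and Atp6v1h, which did not pass, had no promoter sequence here and were not searched. A match is a run of letters in this window only, and this comparison is a description with no test. The counts also depend on the threshold. In some other settings without a covariate Gla, with a match, passed. Of the genes without a match, Atp6ap1, Acp2 and Smpd1 passed in some, and Neu1 and Lamp2 did not pass in some.

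Of the 9 genes for soluble hydrolases of glycans and glycolipids 7 rose and 0 fell, their median log2 fold change was 0.76, and all 9 fold changes were above 0. Man2b1, which removes alpha-linked mannose, was at 1479, 1552, 1248, 1024 and 982 in sham and 1881 (cPTAA 9), 2828 and 3241 (cPTAA 4) in cPTAA (log2 fold change 1.11 ± 0.17, adjusted p = 0.00028). Gusb, the beta-glucuronidase of glycosaminoglycan breakdown, was at 1042, 1081, 974, 830.1 and 940.4 in sham and 1606 (cPTAA 7), 1975 and 2592 (cPTAA 4) in cPTAA (log2 fold change 1.07 ± 0.13, adjusted p = 4.35e-05). For both genes the lowest aneurysm lay above the highest sham library.

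Hexa encodes a subunit of an enzyme that cuts gangliosides. Its values were 2596, 2770, 2025, 2129 and 2175 in sham and 3799.6 (cPTAA 7), 4185 and 5482 (cPTAA 6) in cPTAA (log2 fold change 0.90 ± 0.13, adjusted p = 0.000175). Glb1, the beta-galactosidase, was at 463, 488, 501, 344 and 416 in sham and 576 (cPTAA 9), 779 and 867 (cPTAA 4) in cPTAA (log2 fold change 0.76 ± 0.14, adjusted p = 0.00114). Neither gene overlapped between the groups, nor did Naglu, which acts on heparan sulfate (768 ± 137 against 426 ± 49.7, mean ± SD over 7 cPTAA and 5 sham libraries). Manba, the beta-mannosidase, rose as well (816 ± 139.6 against 506 ± 81.2), although cPTAA 9, at 546, lay within the sham range.

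Neu1, the lysosomal sialidase, rose least. It was at 410.1, 487, 428, 536 and 509 in sham and 504 (cPTAA 7), 601 and 734 (cPTAA 6) in cPTAA (log2 fold change 0.40 ± 0.13, adjusted p = 0.0327). The lowest aneurysm lay below 2 sham libraries, and the call was lost without cPTAA 6, sham 1, sham 5 or sham 8, and without a filter on low values (adjusted p 0.00818 to 0.0867 over the settings without a covariate). Gla, the alpha-galactosidase, did not pass (222 ± 78.6 against 139.8 ± 18.0; log2 fold change 0.61 ± 0.21, adjusted p = 0.0522), and passed in 10 of 21 other settings, among them edgeR, DESeq2, TMM scaling and leaving out cPTAA 7, 9 or 12 (adjusted p 0.0255 to 0.116). Gaa, which breaks down glycogen, did not pass in any of them (1432 ± 177 against 1297 ± 61.9; log2 fold change 0.13 ± 0.11, adjusted p = 0.438).

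Lipid hydrolases, their activators and the acid phosphatases did not move together. Among these 5 genes 1 rose, 1 fell and 3 did not pass. The rise was in Asah1, the acid ceramidase, which was at 1904, 1871, 1773, 1525 and 1746 in sham and 2436 (cPTAA 9), 3538 and 3835 (cPTAA 4) in cPTAA (log2 fold change 0.90 ± 0.14, adjusted p = 0.000246). Each aneurysm lay above each sham library.

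The fall was in Acp5, the tartrate-resistant acid phosphatase, which is known from osteoclasts and some macrophages. It was at 1508, 2291, 1212, 1935 and 1889 in sham and 814 (cPTAA 2), 961 and 1424 (cPTAA 9) in cPTAA (log2 fold change -0.82 ± 0.17, adjusted p = 0.00279). The values of 6 aneurysms lay below every sham library, and cPTAA 9 lay above sham 8 alone. Its adjusted p was 0.000139 to 0.011 over the settings without a covariate. Adjusted for the brown adipocyte score, the log2 fold change of Acp5 was -0.38 ± 0.30 and did not pass (adjusted p = 0.449), but that score did not overlap between the groups, so brown adipocyte content and condition cannot be told apart in this fall. The other acid phosphatase, Acp2, was at 1127, 1093, 957, 929 and 805 in sham and 908 (cPTAA 9), 1191 and 1429 (cPTAA 2) in cPTAA (log2 fold change 0.26 ± 0.13, adjusted p = 0.186). It did not pass, other than with cPTAA 6, 7 and 9 and sham 8 all left out (log2 fold change 0.40, adjusted p = 0.0343).

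Smpd1, the acid sphingomyelinase, was at 3044, 2379, 2083, 2877 and 2643 in sham and 1313 (cPTAA 12), 2009 and 3161 (cPTAA 9) in cPTAA (log2 fold change -0.35 ± 0.19, adjusted p = 0.197). It did not pass, but fell without cPTAA 9, by voom with sample weights, and when 4 libraries (cPTAA 6, 7 and 9 and sham 8) were left out at once (adjusted p 0.0042 to 0.344 over the settings without a covariate). Adjusted for the brown adipocyte score, the log2 fold change of Smpd1 was 0.51 ± 0.24 and did not pass (limma, adjusted p = 0.222). That score did not overlap between the groups, so brown adipocyte content and condition cannot be told apart here. Psap, the precursor of the saposins that present lipids to these enzymes, did not pass (24922 ± 4284 against 22495 ± 4548; log2 fold change 0.16 ± 0.21, adjusted p = 0.631).

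Peptidases and granulin made up 3 of the genes, and 2 rose. Ctsa, a carboxypeptidase that also protects Glb1 and Neu1 in a shared complex, was at 3589, 3514, 3182, 2856 and 2948 in sham and 5217 (cPTAA 9), 5622 and 7093 (cPTAA 6) in cPTAA (log2 fold change 0.87 ± 0.13, adjusted p = 0.00019). Grn, the progranulin precursor, was at 3271, 3194, 2119, 2266 and 2578 in sham and 3118 (cPTAA 7), 6097 and 7578 (cPTAA 2) in cPTAA (log2 fold change 0.92 ± 0.23, adjusted p = 0.0103). Ctsa did not overlap between the groups, whereas for Grn 5 aneurysms lay above the sham range and cPTAA 3 and 7 lay inside it. Tpp1, a tripeptidyl peptidase, did not pass (2449.7 ± 411 against 2658 ± 198; log2 fold change -0.13 ± 0.13, adjusted p = 0.517).

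The proton pump was represented by 6 genes, of which Atp6v0d2 and Tcirg1 rose and 4 did not pass. Atp6v0d2 encodes the d2 form of a V0 subunit that is known from macrophages and osteoclasts. It was at 7.38, 31.2, 4.07, 6.51 and 2.33 in sham and 70.1 (cPTAA 12), 129 and 619 (cPTAA 4) in cPTAA (log2 fold change 4.21 ± 0.56, adjusted p = 9.24e-05). Every aneurysm lay above every sham library. The coefficient of variation was 99.1% in cPTAA, where cPTAA 4 was at 619 and the others at 70.1 to 176, and 115% in sham. The sham libraries held 2 to 32 reads of Atp6v0d2. Its mean was 18.7 times the sham mean, 11.8 times without cPTAA 4 and 38.0 times without sham 5. Of 9 osteoclast markers, 8 were tested and 3 rose (Dcstamp, Ctsk and Nfatc1), with a mean log2 level over the 9 of 5.73 to 6.60 in cPTAA and 5.39 to 5.79 in sham and summed levels of 2390.3 to 5697 against 2694 to 3756. Calcr, the calcitonin receptor of osteoclasts, was at 0 in most libraries and at 2.93 or less in all. Across the 7 aneurysms Atp6v0d2 had a Pearson's r of 0.27 with the macrophage score (exact permutation p = 0.455, adjusted p = 0.731), and 0.69 without cPTAA 7 and 2. Adjusted for that score, the log2 fold change of Atp6v0d2 was 1.69 and did not pass. The score did not overlap between the groups, so macrophage content and condition cannot be told apart in this change. The part of osteoclasts was not tested.

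Tcirg1, the a3 form of the large V0 subunit, was at 706, 805, 712, 574 and 766 in sham and 1093 (cPTAA 7), 1596 and 1862 (cPTAA 6) in cPTAA (log2 fold change 1.08 ± 0.15, adjusted p = 0.000139). The groups did not overlap. Atp6v0d1, the widely expressed form of the d subunit, was at 1259, 1313, 1153, 1222 and 1188 in sham and 1081 (cPTAA 12), 1369.7 and 1788 (cPTAA 9) in cPTAA (log2 fold change 0.18 ± 0.14, adjusted p = 0.4). It did not pass, and its aneurysm values spanned the sham values on both sides. The V1 subunits Atp6v1a, which carries the catalytic site, and Atp6v1h did not pass either (log2 fold change -0.22 ± 0.17, adjusted p = 0.403, and log2 fold change -0.12 ± 0.12, adjusted p = 0.511). The accessory subunit Atp6ap1 did not pass (4453 ± 537 against 3517 ± 305; log2 fold change 0.34 ± 0.13, adjusted p = 0.0681), although 6 of 7 aneurysms lay above all sham libraries, and passed in 7 of 21 other settings, among them edgeR, DESeq2 and leaving out cPTAA 9 or 12 (adjusted p 0.0146 to 0.167).

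Among 17 other proton pump genes 0 rose and 1 fell by limma. An unadjusted p under 0.05 was found in 5 of them and in 7654 of all 21415 tested genes. By edgeR, by voom with weights and with scaling to library totals 2 of the 17 rose, where 18.4%, 17% and 15.6% of all tested genes did. The fall was in Atp6v0e2, a small V0 subunit (142 ± 39.7 against 252 ± 95.1; log2 fold change -0.81 ± 0.25, adjusted p = 0.0304), and was lost with scaling to library totals and without cPTAA 2, cPTAA 3, sham 1, sham 8 or sham 11. Atp6v1c2 and Atp6v0a2 followed by p and did not pass (log2 fold change -2.34 ± 0.89, adjusted p = 0.0689, and log2 fold change -0.40 ± 0.15, adjusted p = 0.071), although Atp6v0a2 fell without sham 8 (-0.50, adjusted p = 0.0282). Atp6v1c2 was at 391 in sham 8 and at 15.1 or less in the other 11 libraries, and Atp6v1b1, which was named after its values were seen, was at 321 in sham 8 and at 16.6 or less in the others. Atp6v0a4, named likewise, was at 137 in sham 8, 16.3 to 21.4 in the other sham libraries and 17.6 to 94.1 in cPTAA. It did not pass (log2 fold change 0.89 ± 0.51, adjusted p = 0.237, and 0.000466 to 0.586 over the settings without a covariate). Atp6v0e2 was at 414 in sham 8 and 185 to 257 in the other sham libraries.

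**Figure D2:**
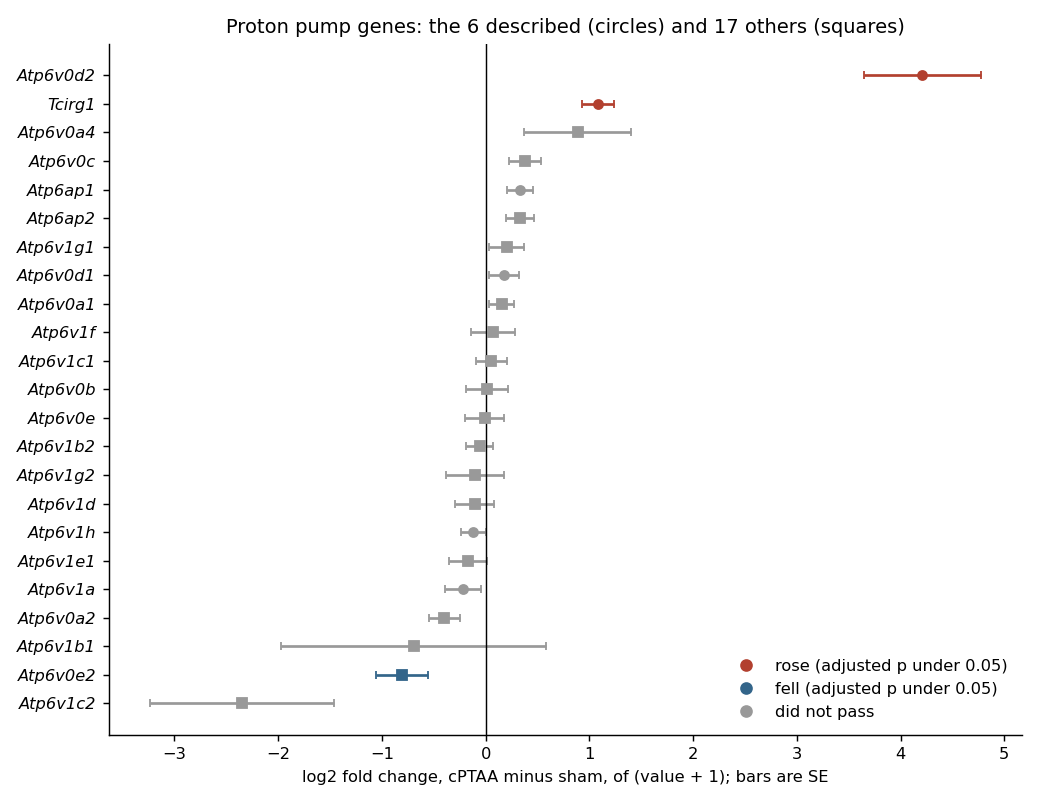
Log2 fold changes (horizontal axis, cPTAA minus sham, of value + 1; bars are SE) of the 6 proton pump genes described (circles) and the 17 others (squares). Of the 23 genes 2 rose, Atp6v0d2 and Tcirg1, and most others lie close to 0, with wide bars for Atp6v1b1, Atp6v1c2 and Atp6v0a4, which were high in sham 8.

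Of the 6 genes for membrane proteins and a channel, 3 rose and 3 did not pass. Laptm5, a lysosomal membrane protein known from blood-derived cells, was at 229, 250.3, 169, 124 and 192 in sham and 757 (cPTAA 7), 1503 and 2249 (cPTAA 12) in cPTAA (log2 fold change 2.86 ± 0.24, adjusted p = 3.89e-06). Cd63, a tetraspanin of late endosomes, lysosomes and exosomes, was at 4082, 3843, 3994, 3280.4 and 3618 in sham and 6449 (cPTAA 12), 7575 and 10929.5 (cPTAA 6) in cPTAA (log2 fold change 1.04 ± 0.15, adjusted p = 0.000167). In both genes all 7 aneurysms lay above the sham range. For T cell markers (9 of 9 rose) the mean log2 level did not overlap between the groups (5.65 to 7.23 in cPTAA and 1.99 to 4.97 in sham). For B cell markers (7 of 7 rose) it did (4.69 to 9.47 against 2.32 to 4.76), as cPTAA 2 lay below sham 8. The part of T and B cells in the change of Laptm5 was not tested. Across the 7 aneurysms Laptm5 had a Pearson's r of 0.77 with the macrophage score (exact permutation p = 0.0617, adjusted p = 0.389), and 0.33 without cPTAA 7 and 2. Adjusted for that score, the log2 fold change of Laptm5 was 0.53 and did not pass. The macrophage score did not overlap between the groups, so macrophage content and condition cannot be told apart in this change either.

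The abundant lysosome-associated glycoproteins gave smaller differences. Lamp2 was at 5561, 5291, 4769.6, 4368 and 4502 in sham and 4823 (cPTAA 9), 7519.9 and 8239 (cPTAA 2) in cPTAA (log2 fold change 0.48 ± 0.16, adjusted p = 0.0455). The values of 6 aneurysms lay above the sham range and cPTAA 9 lay inside it, and the call was lost without a filter and without any one of cPTAA 2, 3, 4 and 12 and of the 5 sham libraries (adjusted p 0.00111 to 0.113). Lamp1 was at 10539, 9849, 9195, 10367 and 11016 in sham and 9816 (cPTAA 12), 11001 and 12787 (cPTAA 6) in cPTAA (log2 fold change 0.12 ± 0.14, adjusted p = 0.581). It did not pass, and 4 of 7 aneurysms lay within the sham range.

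Scarb2, a membrane protein that carries glucocerebrosidase to lysosomes, did not pass (4155 ± 846 against 5262 ± 917; log2 fold change -0.35 ± 0.18, adjusted p = 0.171). Mcoln1, a cation channel that releases calcium from lysosomes, was at 516, 509, 464, 669.5 and 491 in sham and 421 (cPTAA 7), 488 and 570.4 (cPTAA 12) in cPTAA (log2 fold change -0.13 ± 0.13, adjusted p = 0.515), and did not pass. Tfeb, the transcription factor, was at 220.3, 281, 498, 374 and 564 in sham and 225 (cPTAA 4), 308 and 469.6 (cPTAA 9) in cPTAA (log2 fold change -0.18 ± 0.25, adjusted p = 0.652). The aneurysm values of Tfeb all lay within the sham range, so that no difference in its messenger RNA was detectable. TFEB is held in check mainly by phosphorylation, which these data do not measure.

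**Figure D3:**
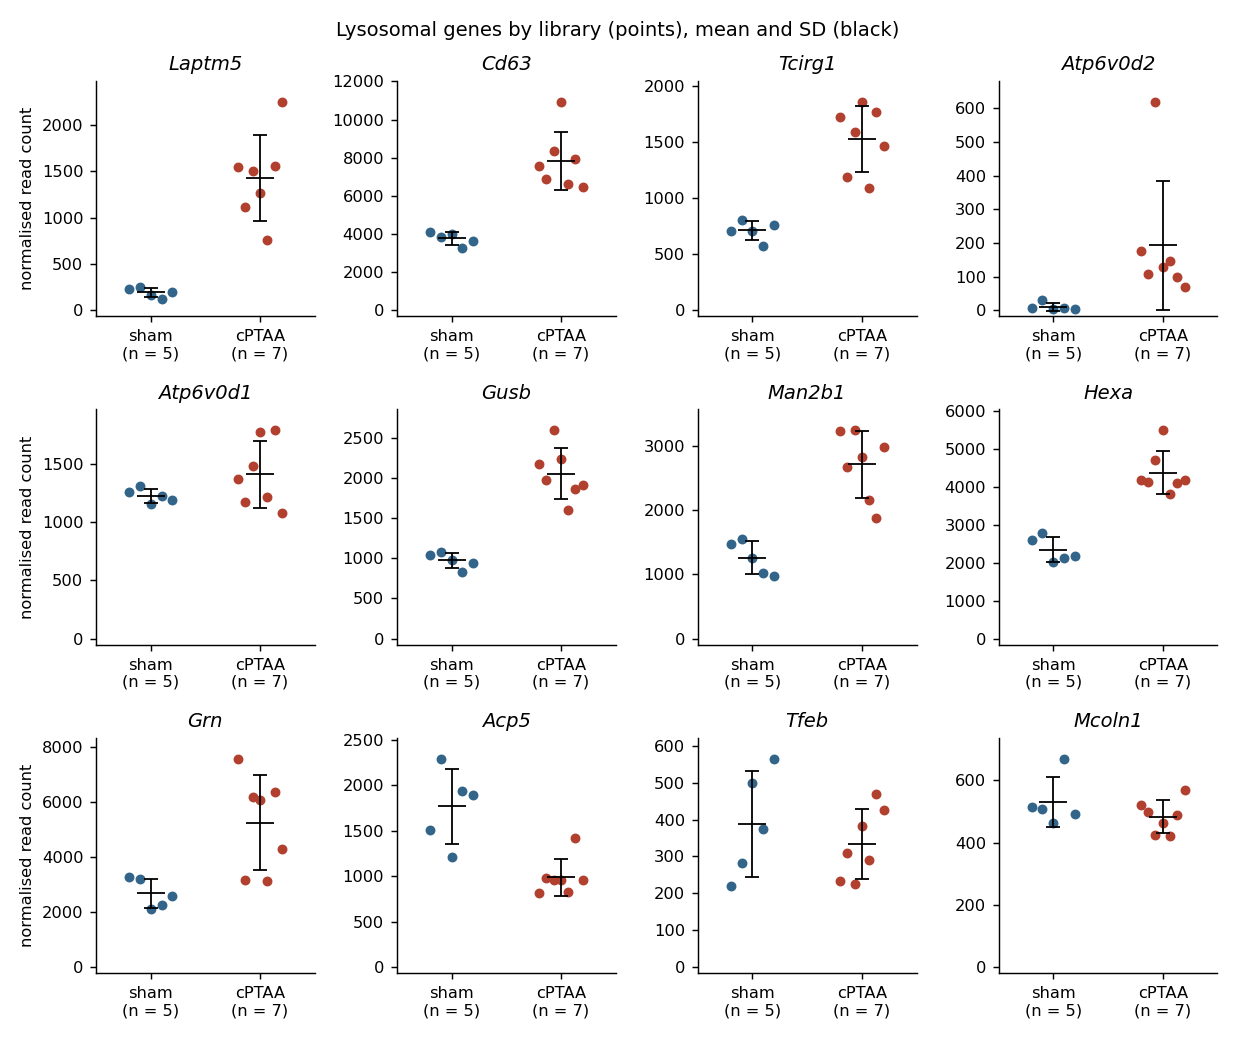
Normalised read counts (vertical axes, linear) of 12 of the genes in each sham (blue, n = 5) and cPTAA (red, n = 7) library, with the mean and SD in black. Laptm5, Cd63, Tcirg1, Atp6v0d2, Gusb, Man2b1 and Hexa do not overlap between the groups, Grn and Acp5 overlap in part, and Atp6v0d1, Tfeb and Mcoln1 overlap.

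Ratios of related genes within a library (of value + 1) depend little on how libraries are scaled, and 8 such ratios, of which 7 are described, were compared with a two-sided exact permutation test over the 792 ways to place 7 labels on 12 libraries, whose smallest p is 0.00126. The ratio of Atp6v0d2 to Atp6v0d1 was 0.0028 to 0.0245 in sham and 0.0564 to 0.418 in cPTAA, a difference in mean log2 ratio of 4.03 (exact p = 0.00126, adjusted p = 0.00337 over the 8 ratios). Tcirg1 against Atp6v0a1, the a3 and a1 forms of one subunit, went from 0.646 to 1.10 in sham up to 1.31 to 2.34 in cPTAA (difference 0.93, exact p = 0.00126, adjusted p = 0.00337). Laptm5 against its widely expressed relative Laptm4a was at 0.0164 to 0.0264 in sham and 0.0836 to 0.243 in cPTAA (difference 2.73, exact p = 0.00126, adjusted p = 0.00337). In these 3 ratios no aneurysm overlapped a sham library.

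Of the other 4 ratios described, 2 fell and overlapped between the groups. Acp5 against Acp2 fell from 1.27 to 2.34 in sham to 0.57 to 1.57 in cPTAA (difference -1.08, exact p = 0.00505, adjusted p = 0.0101). Neu1 against its protector Ctsa fell from 0.115 to 0.188 in sham to 0.0932 to 0.137 in cPTAA (difference -0.47, exact p = 0.0114, adjusted p = 0.0152).

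Glb1 against Ctsa did not pass (0.121 to 0.158 in sham, 0.111 to 0.146 in cPTAA, difference -0.12, exact p = 0.197, adjusted p = 0.197). The ratio of Lamp1 to Lamp2 did not pass either (1.86 to 2.45 in sham, 1.20 to 2.53 in cPTAA, difference -0.36, exact p = 0.104, adjusted p = 0.118). Without cPTAA 9 the Lamp1 to Lamp2 difference was -0.46 and passed (adjusted p = 0.0297, exact permutation test, two-sided), and it was -0.68 with cPTAA 6, 7 and 9 and sham 8 all left out (adjusted p = 0.0381, exact permutation test, two-sided). That last test has 70 ways to place the labels and a smallest p of 0.0143. Its choice of libraries was made after seeing the data, and the aneurysms it left out had the highest Lamp1 to Lamp2 ratios. In this ratio 4 aneurysms were at 1.20 to 1.44 and cPTAA 6, 7 and 9, which had the high cardiomyocyte markers, at 2.11, 1.84 and 2.53. The part of cardiomyocyte content in that spread was not tested.

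**Figure D4:**
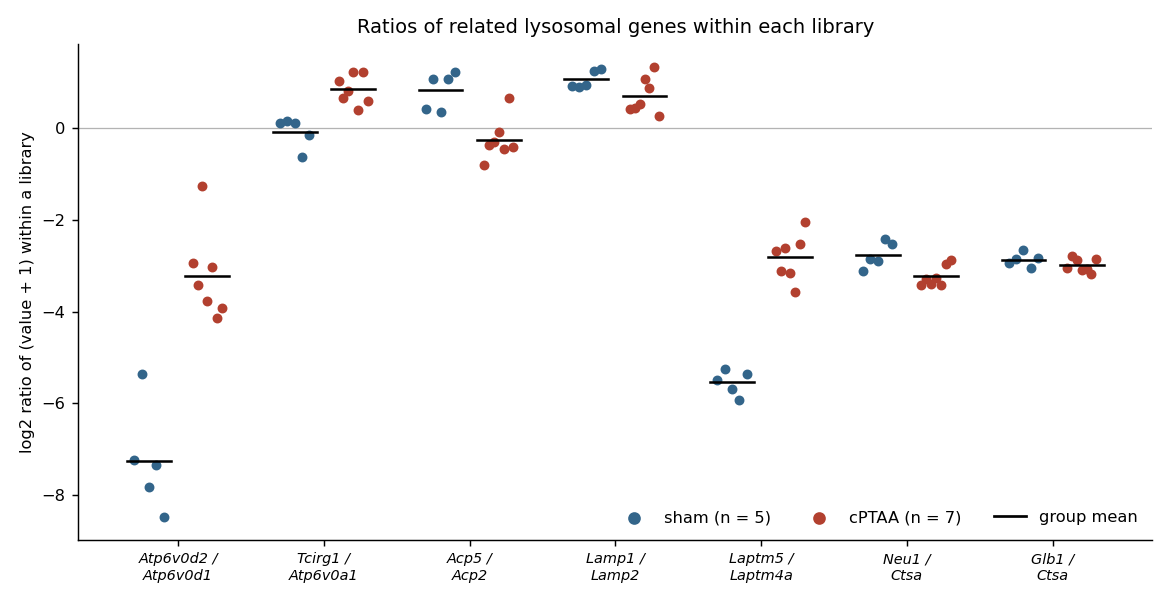
Log2 ratios of 7 pairs of related lysosomal genes within each library (vertical axis), for sham (blue, n = 5) and cPTAA (red, n = 7), with group means in black. The ratios of Atp6v0d2 to Atp6v0d1, Tcirg1 to Atp6v0a1 and Laptm5 to Laptm4a do not overlap between the groups, and those of Lamp1 to Lamp2 and Glb1 to Ctsa did not pass the test.

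The 4 further lists place the 30 genes among other lysosomal genes. Of 27 other soluble hydrolases and activators 15 rose and 1 fell (median log2 fold change 0.49), a share of rises of 55.6% against 12.9% of all tested genes. Lgmn, an asparaginyl endopeptidase, was at 2242, 1879.8, 1458, 1529 and 1802 in sham and 3215 (cPTAA 7), 6066 and 8776 (cPTAA 2) in cPTAA (log2 fold change 1.73 ± 0.21, adjusted p = 4.29e-05). Pld3, a nuclease of the lysosomal lumen, was also among the genes with the smallest p (2375 ± 499 against 1041 ± 182; log2 fold change 1.18 ± 0.18, adjusted p = 0.000231). The fall was in Hyal1, which cuts hyaluronan, at 468, 745, 578, 588 and 623 in sham and 89.2 (cPTAA 9), 273 and 349 (cPTAA 2) in cPTAA (log2 fold change -1.42 ± 0.30, adjusted p = 0.00312). All aneurysms lay below all sham libraries for Hyal1.

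Of other lysosomal membrane proteins, channels and transporters, 6 of 26 tested genes rose and 5 fell (23.1% and 19.2%, against 12.9% and 11.1% of all tested genes). The smallest p were those of Slc11a1, a metal ion transporter of macrophage phagosomes (862 ± 186 against 157 ± 35.4; log2 fold change 2.45 ± 0.18, adjusted p = 2.22e-06), Cd68, a glycoprotein of macrophage lysosomes (1657 ± 581 against 192 ± 69.0; log2 fold change 3.09 ± 0.27, adjusted p = 4.95e-06), and Abcb9, a peptide transporter, which fell (169 ± 43.7 against 369.7 ± 87.9; log2 fold change -1.13 ± 0.20, adjusted p = 0.000946). The other falls were in Laptm4b, Mfsd8, Tpcn1 and Tmem106b, with log2 fold changes of -0.86, -0.65, -0.56 and -0.64. With scaling to library totals 3 fell, as Tpcn1 and Tmem106b did not pass, and Tmem106b also did not pass without sham 1, 5, 10 or 11. Slc11a1 and Cd68 rose after adjustment for the brown adipocyte score too.

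Of 25 delivery and control genes, 2 rose and 3 fell (8% and 12%, near the 12.9% and 11.1% of all tested genes). An unadjusted p under 0.05 was found in 10 of the 25 and in 7654 of all 21415 tested genes. By voom with weights 5 of the 25 rose, where 17% of all tested genes did. With cPTAA 6, 7 and 9 and sham 8 all left out 6 rose and 5 fell, against 17.6% and 15.6% of all genes then tested. Sort1 (sortilin), a sorting receptor for some lysosomal proteins, was at 3608, 4206, 2852, 3991 and 2990 in sham and 1048 (cPTAA 6), 1538 and 1778 (cPTAA 2) in cPTAA (log2 fold change -1.27 ± 0.15, adjusted p = 4.46e-05), with no overlap. Mtor, the kinase of mTORC1, fell (1052 ± 222 against 2006 ± 447; log2 fold change -0.93 ± 0.18, adjusted p = 0.00171), as did Flcn, the folliculin that works with it, also named after its values were seen (937 ± 261 against 1688 ± 350.1; log2 fold change -0.86 ± 0.19, adjusted p = 0.00476). The rises were in Tfec, a relative of Tfeb known from macrophages (52.9 ± 22.0 against 12.2 ± 4.37; log2 fold change 1.98 ± 0.35, adjusted p = 0.000896), and in Sumf1, which activates sulfatases (1543 ± 309 against 979.8 ± 91.7; log2 fold change 0.63 ± 0.16, adjusted p = 0.0101). Adjusted for the brown adipocyte score, which did not overlap between the groups, 0 of the 25 rose and 0 fell. The log2 fold change was then -0.21 for Mtor and 0.21 for Sumf1, and -1.17 for Sort1 and 2.36 for Tfec. The other relatives of Tfeb, Tfe3 and Mitf, did not pass (log2 fold change 0.26 ± 0.12, adjusted p = 0.136, and log2 fold change 0.36 ± 0.20, adjusted p = 0.207), nor did the mannose phosphate tagging and receptor genes Gnptab, Gnptg, Nagpa, M6pr and Igf2r (log2 fold changes of 0.29, 0.31, 0.099, 0.23 and 0.28).

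Among the aneurysms the 30 genes varied by library. The coefficient of variation within cPTAA ran from 9.72% (Lamp1) to 99.1% (Atp6v0d2, where cPTAA 4 lay far above the others). Of the 30 genes, 9 were highest in cPTAA 4, 7 in cPTAA 6 and 6 in cPTAA 2, while 11 were lowest in cPTAA 9 and 9 in cPTAA 7. The macrophage score was lowest of the aneurysms in cPTAA 7 (9.67) and highest in cPTAA 2 (10.7). Across the 7 aneurysms 27 of the 30 genes (90.0%) correlated positively with that score, as did 51.7% of all tested genes. Without cPTAA 7 and 2, which lay farthest from the median score, 19 of the 30 (63.3%) did and 11 correlated negatively. Of all tested genes 52.15% correlated positively without them. The count of 27 thus rests in part on cPTAA 7 and 2. With all 7, 0 of the 30 relations passed after adjustment (exact permutation test, two-sided, lowest adjusted p = 0.389) and 1 had an unadjusted p under 0.05. That 1 was Gusb, chosen after its values were seen (Pearson's r = 0.81, exact permutation p = 0.0351, adjusted p = 0.389; Spearman's rho = 0.68, exact permutation p = 0.109, adjusted p = 0.469; r = 0.71 without cPTAA 7 and 2). With cPTAA 6, 7 and 9 and sham 8 all left out, 17 of the 30 genes rose and 2 fell, Acp5 and Smpd1, against 17.6% and 15.6% of the 19734 genes then tested.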

How the data were processed

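Bulk RNA sequencing gave 12 libraries. Groups and numbers came from the sample titles, which name no animals, so the p-values reflect only the spread among these samples, which may be technical. The submitters' processing notes name GRCm39, HISAT2 2.0.5, featureCounts 1.5.0-p3 and StringTie. The strand setting, scaling and filters are not given in the sources used here, so overlapping genes on opposite strands cannot be told apart. The deposited signal per gene is a whole number of reads divided by 1 factor per library: checked on the values, 100% were whole within 0.02 reads. The lowest chi-square per degree of freedom between libraries of a group was 20.5, so no library was counted as a copy.

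Genes were kept where 5 or more libraries had a value of 1 or higher, which left 21415. Their log2(value + 1) was tested by limma 3.58.1 under R 4.3.3, with a trend of variance on level and p adjusted over all of these genes by Benjamini-Hochberg (threshold 0.05). The added 1 makes fold changes of low genes too small. List levels are means of log2(value + 1). The 30 genes, the other lists and the tests were chosen with earlier results of these data known. Values in every sham library, with the lowest, median and highest cPTAA value, are given for the 8 genes with the largest changes past the threshold, those against the main direction, Tfeb and those of the 30 that enter a ratio, and for other lists the 3 genes with the smallest p and up to 5 in the rarer direction. The values of 1 gene and of 1 ratio that these rules name are not reported here. The fit was tested on simulated data with seeded changes. Alternatives were edgeR 4.0.16 and DESeq2 1.42.0 on the recovered reads, TMM scaling, library totals, voom with sample weights, a pseudocount of 0.1, other filters, marker scores as covariates, and leaving out libraries. Leaving out cPTAA 6, 7 and 9 and sham 8 together was chosen after seeing the data.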

Additional observations from a re-analysis of the deposited data

Results flagged for a closer look

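Each gene's values within each group, and those of each ratio, were checked for a library far from the others of its group (gap to the nearest library over the whole range, on the log2 scale). Of 76 groups checked 5 stood out, where chance gives about 1 in 20. Atp6v0d2 was high in cPTAA 4 (gap 0.579 of the range), at 619 where the other aneurysms were at 70.1 to 176, and so was its ratio to Atp6v0d1 (0.587). Acp5 was high in cPTAA 9 (0.66) and Manba low in cPTAA 9 (0.634). Mcoln1 was high in sham 10 (0.711), at 669 where the other sham libraries were at 464 to 516.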

How the results depend on the processing

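No paired analysis was possible because the groups share no replicate number. Of the 16 calls among the 30 genes, 14 held under all 21 settings without a covariate. Over single libraries left out, 13 to 17 genes rose and 1 to 2 fell (2 without cPTAA 9, Acp5 and Smpd1); 14 to 17 of the other hydrolases rose and 1 to 2 fell (2 without sham 8); 0 to 1 of the other proton pump genes rose (1 without cPTAA 12 or sham 8) and 0 to 1 fell (0 without cPTAA 2, cPTAA 3, sham 1 or sham 11); and 2213 to 3156 of all genes rose and 1675 to 2818 fell. Scaling to library totals moved the median of all genes by 0.115 (log2) and the share of rises among calls from 53.7% to 64.7%. It gave 17 rises and 1 fall among the 30, 2 rises and 0 falls among the other pump genes, 3 falls among other membrane genes and 4 rises among delivery and control genes. With it Atp6v1h turned to 0.0045 (log2). EdgeR gave 2 rises among the other pump genes. Voom with weights gave 2 falls among the 30, 2 rises among the other pump genes and 5 among delivery and control genes. With cPTAA 6, 7 and 9 and sham 8 all left out there were 2 falls among the 30, 1 rise and 3 falls among the other pump genes, and 6 rises and 5 falls among delivery and control genes, the Lamp1 to Lamp2 difference (-0.68) passed, that of Neu1 to Ctsa (-0.52) did not, and that of Glb1 to Ctsa turned to 0.029. The exact test with these libraries left out has 70 ways to place the labels and a smallest p of 0.0143. Of all tested genes 15.6% rose with library totals, 18.4% by edgeR and 17% by voom. With cPTAA 6, 7 and 9 and sham 8 left out, 17.6% rose and 15.6% fell. Over single libraries left out the ratio of Lamp1 to Lamp2 ran from -0.46 (without cPTAA 9, where it passed) to -0.28, and the other ratio calls did not change. The cause of these shifts was not tested.

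Adjustment for the brown adipocyte score left 273 rises and 93 falls over all genes, with a median SE of 0.518 against 0.302. Among the 30 genes 2 rose and 0 fell. The 13 rises lost stayed above 0, at 0.02 to 1.07 (log2), and the median of the 30 was 0.395 against 0.438. Of the other hydrolases 0 rose and 0 fell, of the other pump genes 0 fell, of the other membrane genes 2 rose and 0 fell, and of delivery and control genes 0 rose and 0 fell. Gaa (-0.11), Smpd1 (0.51), Acp2 (-0.019) and Atp6v1h (0.035) changed sign. Adjusted for the macrophage score, 0 genes in any list or in the whole table rose or fell by limma, and 0 of the 30 had an unadjusted p under 0.05. There Gla (-0.18), Glb1 (-0.17), Man2b1 (-0.42), Asah1 (-0.0093), Smpd1 (0.017), Psap (-0.74), Acp2 (-0.504), Grn (-0.91), Atp6v0d1 (-0.043), Atp6ap1 (-0.0011), Lamp2 (-0.64), Tfeb (1.32), Lgmn (-0.37), Pld3 (-0.031), Abcb9 (0.77) and Tfec (-0.77) changed sign, with a median SE over all genes of 1.08. Values of Atp6v0d2 in sham rest on 2 to 32 reads, which limits the precision of its fold change.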
